A study of Mus musculus with 6 samples.

Results

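The genes described here are the 3 *Nanos* genes of the mouse (*Nanos1*, *Nanos2* and *Nanos3*), *Dnd1* and the Pumilio gene *Pum2*. They were chosen by gene symbol, with the measured difference of *Nanos2* between the groups already known, so that the values of these 5 genes are given as a description and carry no test. Each of the 5 was found as 1 row of the deposited table, among 23837 rows that could be named. The samples were PGCs (primordial germ cells, the embryonic precursors of gametes) sorted from gonads of male embryos at E13.5, in 3 WT samples (og2.fvb.fancg +/+) and 3 samples labelled *Fancg*-/- (og2.fvb.fancg -/-). Each sample held 10000 PGCs pooled from at least 5 embryos, so that no value belongs to a single embryo. Both genotypes carried the OG2 transgene, an EGFP reporter under regulatory sequence of *Pou5f1* (Oct4), and cells were gated on this fluorescence, so that a cell that lost the reporter was not collected. RNA was hybridised to Affymetrix Mouse Gene 2.0 ST arrays, and all values are RMA signals on a log2 scale, where a difference of 1 is a doubling.

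Nanos proteins are zinc-finger proteins that bind mRNA and bring it to the CCR4-NOT deadenylase, which shortens the poly(A) tail and so leads to decay. In the mouse, *Nanos3* is expressed in PGCs from their migration onwards and is needed for their survival. *Nanos2* is switched on in male germ cells once they lie in the fetal testis, where it represses the meiotic programme and favours male differentiation. DND1 is an RNA-binding protein of germ cells that works with NANOS2 and recruits CCR4-NOT, and loss of *Dnd1* depletes PGCs. Pumilio proteins bind short motifs in the untranslated end of mRNAs, and in Drosophila Pumilio is the partner of Nanos.

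The promoters of *Nanos2* and *Nanos3* are shown because these are the members whose groups did not overlap, in opposite directions. Both are RefSeq sequences of assembly GRCm38.p6, from 250 bases before to 50 bases after the annotated start, written 5′ to 3′ on the strand of the gene. *Nanos2* lies on the plus strand and its window is chr7:18987274-18987573. *Nanos3* lies on the minus strand and its window is chr8:84176503-84176802. Capitals mark matches, on either strand, to the TATA box motif TATAAA, the CCAAT box or the GC box motif GGGCGG.
Nanos2: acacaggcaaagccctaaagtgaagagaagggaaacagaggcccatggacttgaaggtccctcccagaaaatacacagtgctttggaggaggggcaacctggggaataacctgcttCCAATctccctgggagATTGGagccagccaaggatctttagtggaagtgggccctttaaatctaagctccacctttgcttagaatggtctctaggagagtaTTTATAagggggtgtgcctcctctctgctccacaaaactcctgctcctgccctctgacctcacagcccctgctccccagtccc
Nanos3: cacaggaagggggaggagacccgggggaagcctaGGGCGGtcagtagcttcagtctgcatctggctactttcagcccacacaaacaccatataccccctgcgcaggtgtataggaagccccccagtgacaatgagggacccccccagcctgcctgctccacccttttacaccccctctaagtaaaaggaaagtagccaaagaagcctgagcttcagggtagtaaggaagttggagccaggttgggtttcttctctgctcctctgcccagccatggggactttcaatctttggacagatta
The *Nanos2* window held 2 CCAAT matches, 1 on each strand, and 1 TATAAA match on the opposite strand, whereas the *Nanos3* window held a single GC box. Of 32851 promoter windows of this length, 13.6% held TATAAA, 37.4% CCAAT and 35.7% GGGCGG. The FOXH1 core AATCCACA, found in 0.855% of windows, and the E-box CACGTG, found in 7.15%, were also searched and had no match in either window, which says only that these letters are absent there. The *Nanos2* window had 53% G or C and 0 CpG dinucleotides, and the *Nanos3* window 55.3% and 3. The window of *Nanos1* had 71.7% G or C and 34 CpG dinucleotides, against medians of 52.7% and 7 over all windows. The 3 annotated starts of *Pum2* had between 69.3% and 79.3% G or C and 35 to 44 CpG dinucleotides. These features describe the sequences and were not set against the expression values.

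*Nanos2* (Entrez gene 378430, chr7:18987524-18988962 in GRCm38.p6) was lower in each sample labelled *Fancg*-/- than in each WT sample. Its log2 signal was 5.96, 7.45 and 6.41 in WT replicates 1, 2 and 3, and 4.85, 4.64 and 4.63 in labelled replicates 1, 2 and 3. The WT samples were spread widely, with replicate 2 highest and a range of 1.49 (2.81-fold), whereas the labelled samples lay within 0.22 (1.17-fold) of each other. The lowest WT sample was 1.11 above the highest labelled sample. The means were 6.61 ± 0.76 (SD, n = 3) in WT and 4.71 ± 0.13 (SD, n = 3) in labelled samples. The difference of -1.90 (standard error 0.33, 95% interval -2.67 to -1.14 from limma) was a 3.74-fold lower signal and was the lowest but 2 of all named genes, at rank 3. The 2 lower ones were *Cyp17a1* (-2.34) and *Cyp11a1* (-2.24), both from the list of fetal Leydig cell markers described below. The table carries no detection call, so that it is not known whether the labelled samples were above the background of the array for *Nanos2*.

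*Nanos3* (Entrez gene 244551, chr8:84173733-84176552) lay the other way, higher in each labelled sample than in each WT sample. WT replicates 1, 2 and 3 had log2 signals of 7.70, 8.20 and 7.59, and the labelled replicates had 8.22, 8.26 and 8.33. The groups were separated by only 0.02, because WT replicate 2, which was also highest for *Nanos2*, came close to the labelled samples. The means were 7.83 ± 0.32 (SD, n = 3) and 8.27 ± 0.06 (SD, n = 3), a difference of 0.44 (standard error 0.16, 95% interval 0.07 to 0.80) or 1.35-fold. Without WT replicate 2 the difference was 0.62 and without WT replicate 3 it was 0.32. As for *Nanos2*, the WT samples varied more than the labelled ones, over 0.61 against 0.11.

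*Nanos1* (Entrez gene 332397, chr19:60755987-60759914), the family member that mice can lack without loss of fertility, had a low signal with no separation of the groups. WT replicates had 4.13, 4.31 and 4.19, and the labelled replicates lay between 4.03 (replicate 1) and 4.196 (replicate 2), with replicate 3 at 4.06. The means of 4.21 ± 0.09 and 4.10 ± 0.09 (SD, n = 3 each) differed by -0.11 (standard error 0.09, 95% interval -0.33 to 0.10). WT replicate 2 was again the highest of the 6 samples, and labelled replicate 2 lay above WT replicates 1 and 3.

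**Figure D1:**
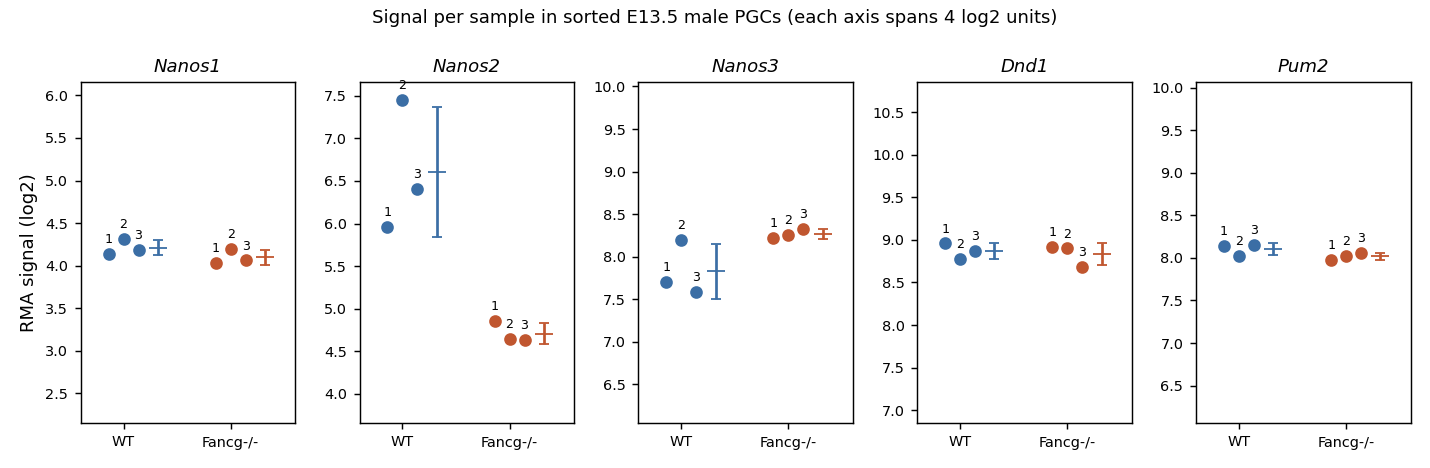
RMA signal (log2, vertical axis) of each gene in each sample, WT in blue and samples labelled Fancg-/- in orange, with replicate numbers above the points and the mean ± SD (n = 3) beside them; every axis spans 4 log2 units. For Nanos2 the WT points lie between 5.96 and 7.45 and the labelled points between 4.63 and 4.85, whereas Dnd1, Pum2 and Nanos1 show overlapping groups.

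*Dnd1* (Entrez gene 213236, in GRCm38.p6 on chromosome 18 from 36763671 to 36766214), the partner of NANOS2, had overlapping groups. It was measured at 8.96, 8.78 and 8.87 in WT and at 8.92, 8.90 and 8.69 in labelled samples. The difference was -0.03 (standard error 0.10, 95% interval -0.27 to 0.20), with means of 8.87 ± 0.09 and 8.83 ± 0.13 (SD, n = 3 each). Its sign turned when WT replicate 1 (0.01) or labelled replicate 3 (0.04) was left out, so that no direction is given.

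*Pum2* (Entrez gene 80913, chr12:8674092-8752583), which encodes a Pumilio protein present in most tissues, also had overlapping groups. The signal was 8.14, 8.02 and 8.15 in WT and 7.98, 8.02 and 8.06 in labelled samples. The difference was -0.09 (standard error 0.09, 95% interval -0.28 to 0.11), with means of 8.11 ± 0.07 and 8.02 ± 0.04 (SD, n = 3 each). WT replicate 2, the highest sample for the *Nanos* genes in the WT group, was the lowest WT sample for both *Dnd1* and *Pum2*.

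Among the 5 genes, the groups did not overlap in 1 that was lower, *Nanos2*, and in 1 that was higher, *Nanos3*. Over all named genes, 8.45% were lower and 9.45% higher without overlap, and since the genes were chosen with these samples in view nothing is read from the count. No gene was called over all 23837 named genes at an adjusted p under 0.05 (limma with Benjamini-Hochberg adjustment, 0%), the smallest adjusted p being 0.114, and the per-gene test that the methods name called 0 after the same adjustment. At an unadjusted limma p under 0.05 there were 1486 higher genes (6.23%) and 1470 lower genes (6.17%). The standard errors and intervals given for the 5 genes use limma's variance, which is drawn towards that of all genes. They are therefore not the spread of each gene alone, and they are no test. Overlapping groups do not show that *Nanos1*, *Dnd1* and *Pum2* were the same in both.

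The label of the cells was checked against markers of PGCs. The 14 PGC markers had a mean log2 signal of 9.43 to 9.55 in WT and 9.52 to 9.65 in labelled samples, with the pluripotency gene *Pou5f1* between 9.45 and 9.76 over the 6 samples and the germ cell gene *Dazl* between 11.65 and 11.81. Of the 14 differences, 8 were above and 6 below 0, and none of the genes was called. At an unadjusted limma p under 0.05, 3 were higher (6.23% of all named genes) and 0 lower (6.17%). In either direction that count was 9 with a trend and robust prior and 2 with a block for replicate number. The list members with the smallest p, *Tfap2c* and *Nanog*, had log2 differences of 0.56 and 0.40, against -0.02 for *Pou5f1* and -0.10 for *Dazl*. The direction of each difference rests on the labels, because the row of *Fancg* itself had 6.13 ± 0.22 in WT and 6.63 ± 0.24 in labelled samples (SD, n = 3 each). The position of its probes relative to the mutated part was not known here, and it therefore does not check the labels. The median signal per array lay between 4.68 and 4.75, and pairs of samples correlated at 0.989 to 0.994 over all rows.

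Relative to the mean of the PGC markers, which was 0.12 higher in labelled samples, *Nanos2* differed by -2.03 (standard error 0.34) and *Nanos3* by 0.31 (standard error 0.16). On the same scale *Nanos1* differed by -0.24, *Pum2* by -0.21 and *Dnd1* by -0.16, against -0.11, -0.09 and -0.03 unscaled. The marker mean includes genes that were themselves higher in labelled samples, such as *Tfap2c* and *Nanog*. The larger scaled values therefore depend on this reference. In such pools, fewer cells that express a gene and less of its RNA per cell cannot be told apart.

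Markers of fetal Leydig cells, the steroid-making cells between the testis cords, had differences on the same side of 0 as *Nanos2*. None of the 9 measured markers was called, although *Hsd3b1* was without WT replicate 1. All 9 were below 0 in their difference, and 7 had groups that did not overlap, as 8.45% of all named genes did in that direction. At an unadjusted limma p under 0.05, 7 of the 9 were lower, against 6.17% of all named genes. The mean of the list was 5.49, 5.79 and 6.12 in WT replicates 1, 2 and 3 against 4.72, 4.34 and 4.81 in the labelled samples. Their order in WT was not that of *Nanos2*, for which WT replicate 2 was highest. The steroid enzyme genes *Cyp11a1* (-2.24) and *Hsd3b1* (-1.55) had the smallest p of that list. Of the 12 Sertoli cell markers 10 were below and 2 above 0, none was called, and 2 were lower at an unadjusted p under 0.05 (6.17% of all named genes). In either direction that count was 7 with weighted arrays, 6 without WT replicate 1 and 1 without labelled replicate 2 or 3. The mean of the 12 Sertoli cell markers ranged from 7.10 to 7.60 in WT and from 6.73 to 7.20 in labelled samples. *Inha* had -0.55 and *Wt1* -0.37, and the 2 above 0 were *Etv5* with 0.18 and *Fgf9* with 0.22. Those 2 had unlike signals, with WT means of 10.71 for *Etv5* and 3.50 for *Fgf9*. The latter is close to the 25th percentile of gene means, 3.41. Which cells these signals came from was not tested. The mean of the 12 interstitial and stromal markers, of which 11 were below 0, ranged from 5.55 to 5.97 and from 5.42 to 5.64, with *Pdgfrb* at -0.37 and *Col3a1* at -0.33. None of the 12 was called, and 6 were lower at an unadjusted p under 0.05 (6.17% of all named genes). That count was 8 without WT replicate 1 and 2 without WT replicate 2 or 3. In this list the order of the WT samples was that of *Nanos2*, with 5.55, 5.97 and 5.86 in replicates 1, 2 and 3. The 10 endothelial markers were all above 0 (means 4.69 to 5.13 in WT and 4.98 to 5.44 in labelled samples), with *Plvap* at 0.52 and *Sox18* at 0.31. None of the 10 was called, and 5 were higher at an unadjusted p under 0.05 (6.23% of all named genes). That count was 7 without WT replicate 1 and 2 without WT replicate 3. Among the 5 was *Pecam1*, whose means of 9.54 in WT and 9.92 in labelled samples lay far above the means of the list. *Sox18* was low, with 3.83 and 4.14. Which cells these signals came from was not tested. The 8 measured blood cell markers, 4 below and 4 above 0, ranged from 4.02 to 4.27 and from 3.79 to 4.23 in their mean, with *Alas2* at -0.47 and *Adgre1* at 0.24. With the mean of the 4 somatic lists other than blood as a covariate, *Nanos2* differed by -1.46 with a standard error of 0.82 and *Nanos3* by 0.33 with a standard error of 0.40. That mean was higher in each WT sample than in each labelled sample, so that it cannot be told apart from genotype. It also averages endothelial markers, all above 0, with lists that lay mostly below 0. Confounded in this way, the covariate widens standard errors, and the changed counts it gives, here and below, are not read. For the 12 Sertoli cell markers it gave 5 genes in either direction at an unadjusted p under 0.05. The part of somatic cells in the differences of *Nanos2* and *Nanos3* was not tested.

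**Figure D2:**
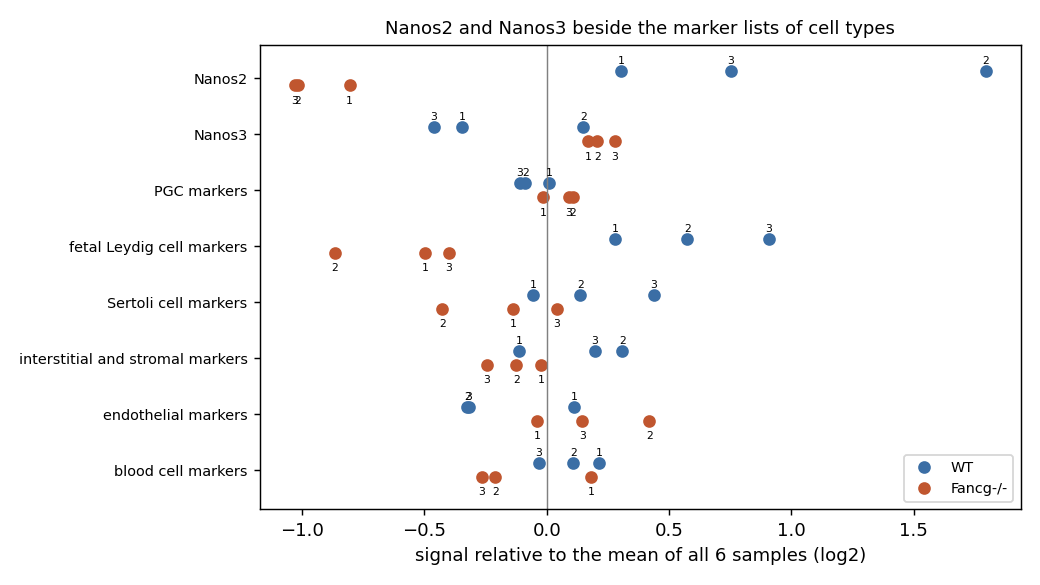
Log2 signal relative to the mean of all 6 samples (horizontal axis) for Nanos2, Nanos3 and the mean of each marker list, WT in blue and samples labelled Fancg-/- in orange, with replicate numbers. Nanos2 and the fetal Leydig cell markers are higher in all 3 WT samples, with WT replicate 2 highest for Nanos2 and WT replicate 3 highest for the Leydig list (6.12).

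The genes whose pattern was most like that of *Nanos2* were taken by Pearson's r over the 6 samples. The 1181 candidates were named genes with a mean above the median and an SD of at least 0.3. Predicted genes, Riken clones, accession-like names, pseudogenes, microRNAs, and small nuclear, nucleolar, transfer and ribosomal RNAs were left out beforehand. The 6 closest were *Amer1* (r = 0.996), *Bgn* (0.988), *Ccdc172* (0.987), *Ighm* (0.986), *Ggnbp1* (0.986) and *Sycp2* (0.986). The r values carry no test, since the 6 points share the split into groups and high values are then common. Like *Nanos2*, each had WT replicate 2 as its highest sample and no overlap between the groups. Both features come with the choice by r over these same samples and are no separate result. The differences of the 6 genes ran from -0.51 in *Ggnbp1* to -1.59 in *Ighm*. *Nanos2* had the widest difference of the 7, but it was chosen with that difference known. *Bgn* encodes the matrix proteoglycan biglycan and *Ighm* an immunoglobulin heavy chain, whereas *Sycp2* encodes a component of the synaptonemal complex.

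The deadenylase and decay factors with which Nanos proteins and DND1 act showed small differences. Of 13 CCR4-NOT genes, none was called over all genes and 1 was higher at an unadjusted p under 0.05 (6.23% of all named genes), with a median of -0.06 against 0.01 over all named genes. The count in either direction was 0 without WT replicate 2 or with the somatic mean as a covariate and 2 without labelled replicate 3, and the median was -0.12 without WT replicate 1. *Cnot8*, a catalytic subunit, was measured at 6.78, 6.42 and 6.53 in WT and 6.88, 6.92 and 6.99 in labelled samples, which differed by 0.35 with limma's standard error of 0.11 (adjusted p = 0.28). Its paralog *Cnot7* had a difference of -0.22 (adjusted p = 0.51 from limma), with 8.27 to 8.36 in WT and 7.86 to 8.24 in labelled samples, so that these related subunits lay on opposite sides. *Cnot4* had -0.14, *Cnot6* had -0.16 and the scaffold gene *Cnot1* had -0.06. Of 13 genes of P-bodies and decapping, the cytoplasmic granules where such mRNAs are held or degraded, none was called and the median was -0.06. An unadjusted p under 0.05 was reached by 1 in each direction, against 6.23% of all named genes higher and 6.17% lower. In all it was reached by 1 when any one sample other than labelled replicate 3 was left out, and by 0 with the somatic covariate. These were the decapping enzyme gene *Dcp2* with 0.33 (adjusted p = 0.29 from limma) and the exonuclease gene *Xrn1* with -0.22 (adjusted p = 0.36 from limma). *Eif4enif1* and *Edc4* had -0.14 and 0.14.

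Other RNA-binding proteins and regulators of germ cells were compared as neighbours of *Nanos2* and *Dnd1*. Of 15, none was called. At an unadjusted p under 0.05, 3 were lower and none was higher, against 6.17% and 6.23% of all named genes. With the somatic mean as a covariate the count was 0 and the median 0.04. The list had a median of -0.10, or -0.06 without WT replicate 3, and the plain per-gene test of the methods gave 5 genes at that p in either direction. The lower ones were *Meioc*, a regulator of meiotic transcripts, with -0.59, the Tudor domain gene *Tdrd7* with -0.58 and *Igf2bp3* with -0.36 (adjusted p from 0.16 to 0.25 from limma). *Lin28a*, an inhibitor of let-7 maturation, had 0.19. *Dazl* and *Ddx4*, both also counted as PGC markers, had -0.10 and -0.0041. *Dazl* had groups that did not overlap, and *Ddx4* groups that did.

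The signals that act before *Nanos2* in the fetal testis include Nodal and its co-receptor Cripto, FGF9, the p38 MAP kinases and the retinoic acid-degrading enzyme CYP26B1. Of 17 such genes, none was called. At an unadjusted p under 0.05, 3 were higher (6.23% of all named genes) and none was lower (6.17%). The median of 0.07 lay on the other side of 0 from *Nanos2*, with 12 genes above 0 and 5 below. The list mixes ligands, receptors and kinases, so that its median gives no direction of signalling. *Fgfr1*, an FGF receptor gene, had 0.33 (adjusted p = 0.22 in the limma fit, standard error 0.09), *Foxh1*, a transcription factor of Nodal signalling, had 0.33 (standard error 0.10), and *Smad3* had 0.31 (standard error 0.11). *Mapk14*, which encodes a p38 kinase, had 0.23 (adjusted p = 0.41 from limma). Without WT replicate 1 the count in either direction was 6 and the median 0.03. The median was 0.12 without WT replicate 2 and 0.16 without labelled replicate 1, and with the somatic mean as a covariate the median was -0.02 and the count 1.

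Genes of the male programme that *Nanos2* favours and of the meiotic programme that it represses were both examined. Of 12 genes of the male programme, none was called. At an unadjusted p under 0.05 there were 3 lower (6.17% of all named genes) and 0 higher (6.23%). The list median of -0.04 turned to 0.0066 without WT replicate 2 and without labelled replicate 3, so that it has no settled direction. *Cdkn1b*, an inhibitor of the cell cycle, had 6.63, 6.98 and 6.94 in WT and 5.99, 5.83 and 6.25 in labelled samples, that is -0.83 with limma's standard error of 0.14 (adjusted p = 0.15). The piRNA pathway genes *Tdrd1* and *Tdrd5* had -0.56 and -0.30, and *Morc1* had 0.25. Without WT replicate 1 the count in either direction was 5, and with the somatic mean as a covariate it was 0.

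All 12 meiotic genes had a difference below 0, with a median of -0.41, so that they lay on the same side as *Nanos2*. None was called, and 7 were lower at an unadjusted p under 0.05, where 6.17% of all named genes were. A shift of meiotic genes in these samples was already known when the list was written, so that the count is no independent support. *Sycp2* had 6.83, 7.37 and 7.03 in WT and 6.28, 6.05 and 5.98 in labelled samples, that is -0.97 with limma's standard error of 0.15 (adjusted p = 0.15). *Sycp1* had -0.69 and the meiotic cohesin gene *Smc1b* had -0.55, while *Stra8*, which starts the meiotic programme, had -0.30 with overlapping groups. The signal of *Stra8* was low, with means of 3.62 in WT and 3.32 in labelled samples, where the 25th percentile of gene means was 3.41. *Meioc*, counted in this list too, is given above. With the somatic mean as a covariate the median was -0.45, and 0 of the 12 had an unadjusted p under 0.05.

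**Figure D3:**
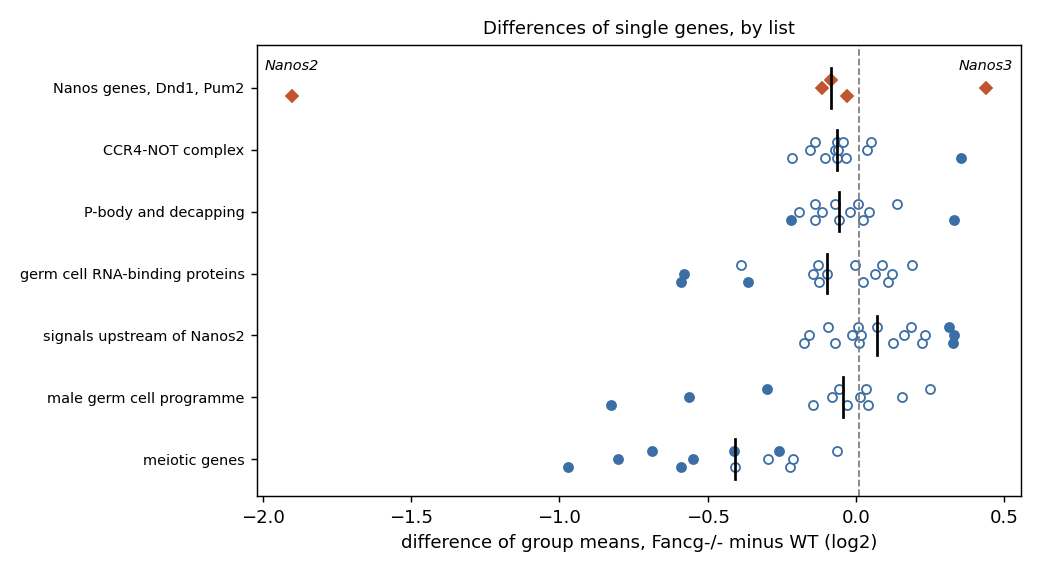
Difference of group means (log2, samples labelled Fancg-/- minus WT, horizontal axis) of each gene, by list; black bars are list medians and the dashed line is the median of all named genes (0.01). Diamonds are the Nanos genes, Dnd1 and Pum2, which carry no test, and among the circles filled ones have an unadjusted p under 0.05 from limma. Nanos2 at -1.90 lies below every gene of the 6 other lists plotted (lowest -0.97, Sycp2), and the meiotic genes have a median of -0.41.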

How the data were processed

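Each deposited value is the log2 signal of 1 Entrez gene on an Affymetrix Mouse Gene 2.0 ST array, normalised by the authors. The submitters' processing notes name RMA and Partek. Tool versions and build: not given in the sources used here. Of 24479 rows, 23837 were named through RefSeq (23712) or the platform annotation, and 642 were left out. RMA equalises the arrays, so that a change of total RNA is not seen. Arrays have no read depth, and 3 samples per group limit the precision.

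Differences (labelled *Fancg*-/- minus WT), standard errors, 95% intervals and p-values came from limma 3.58.1 under R 4.3.3, fitted to all 6 samples without covariates, with p adjusted over the named genes by Benjamini-Hochberg. The pools are separate by the methods. The p-values set each difference against the spread between pools, with the variance of each gene drawn by limma towards that of all genes. The code was tested on simulated data. An exact two-sided permutation test of 3 against 3 cannot go below 0.1 and was not used.

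The members and lists were chosen with earlier results of these data known. From each list the 4 genes with the smallest p (2 for cell types) were named. Besides these, *Cnot1*, *Stra8*, *Dazl*, *Ddx4*, *Pou5f1*, *Etv5*, *Fgf9*, *Pecam1* and *Cyp17a1* were added after their values were seen. Lists share genes: *Meioc*, *Dazl*, *Ddx4*, *Mael* and *Fgf9* are in 2 each. *Insl3* and 3 globin genes of the lists were not found. Alternatives were Student's t-test, limma with a trend and robust prior, weighted arrays, quantile normalization, equal medians and removal of dim genes. Others were a block for replicate number, a somatic marker covariate, scaling to PGC markers and leaving out each sample. Some results are not reported here.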

Additional observations from a re-analysis of the deposited data

How the results depend on the processing

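*Nanos2* stayed below 0 in all 12 alternatives that can move a difference, between -2.22 and -1.46, and *Nanos3* above 0 in all 12, between 0.31 and 0.62. Leaving out 1 sample gave -2.22 (WT replicate 1) to -1.48 (WT replicate 2) for *Nanos2*. *Nanos1* and *Pum2* stayed below 0 in all 12, and *Dnd1* in 10. The number of genes called was not counted with scaling to PGC markers. In each other alternative it was 0, except without WT replicate 1, where it was 3 (*Cntfr*, *Hsd3b1* and DQ267100). Leaving out 1 sample thus gave 0 to 3. The male programme's median was 0.0066 without WT replicate 2 and without labelled replicate 3. With the somatic mean as a covariate, an unadjusted p under 0.05 was found in 623 higher and 536 lower genes, against 1486 and 1470, and the medians of 5 lists turned sign: CCR4-NOT 0.0383, germ cell RNA-binding proteins 0.036, upstream signals -0.023, Sertoli cell 0.60 and endothelial markers -0.0662. This covariate separated the groups fully, so that its changes cannot be told apart from genotype, and their cause was not tested. Sample numbers did not pair the samples (correlations of deviations -0.14, -0.11 and 0.03, with 2 of 6 samples closest to their own number). The replicate block gave *Nanos2* -1.90 with a standard error of 0.31, 1193 higher and 1287 lower genes with an unadjusted p under 0.05, and 0 called. With no detection calls, how far signals near the background limit the difference of *Nanos2* is not known.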
